A study of Mus musculus with 8 samples.

Results

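The 10 genes described here encode enzymes and receptors of the prostaglandin and leukotriene pathway: Ptgs1, Ptgs2, Ptges, Hpgds, Tbxas1, Ptger2, Ptger4, Alox5, Alox5ap and Ltc4s. They were taken by gene symbol from the tables of 8 RNA-Seq libraries of tumor-associated macrophages (TAMs), which list 21051 genes. The TAMs were sorted as CD45+F4/80+ cells from melanomas that grew after s.c. injection of B16 cells, a melanoma line of C57BL/6 mice, and the tumors were excised 14 days after injection. TAM-WT came from 4 WT littermates and TAM-KO from 4 Colec11-/- mice, which lack collectin-11 (CL-11), a soluble C-type lectin, in the whole body and not in macrophages alone. All mice were C57BL/6 males aged 8 to 10 weeks, and each library came from a different mouse. Levels are given in FPKM, fragments scaled to transcript length and to the mapped reads of the library, so they can be compared between genes.

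Prostaglandins and leukotrienes are lipid mediators made from arachidonic acid, which phospholipases free from membranes. The cyclooxygenases Ptgs1 and Ptgs2 turn it into prostaglandin H2, from which terminal synthases make prostaglandin E2 (Ptges), prostaglandin D2 (Hpgds) or thromboxane A2 (Tbxas1). 5-lipoxygenase (Alox5) makes leukotriene A4 with the help of the membrane protein FLAP (Alox5ap), and leukotriene C4 synthase (Ltc4s) joins glutathione to it. Macrophages can make both kinds of lipid, and prostaglandin E2 acts on them through the receptors EP2 (Ptger2) and EP4 (Ptger4), which raise cyclic AMP.

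Some facts of the libraries bear on the results. The table of TAM-KO replicate 1 lacks an unbroken run of 5311 genes, among them Alox5, Alox5ap and Ltc4s. For Alox5 and Ltc4s its value was taken from the table of the whole series, which holds the authors' own comparison and lists only 3996 genes. Alox5ap is not among them, so for it there were 3 TAM-KO libraries. The test used 3 TAM-KO libraries for these 3 genes and all 8 libraries for the other 7. The other 7 libraries held 16225362 to 17280267 reads on genes. Colec11 itself had 0 to 4 reads in TAM-WT and 1 read in every TAM-KO library, so at this depth it could not check the labels. Macrophage markers were abundant in the other 7 libraries, where their summed level over 9 genes was 7424 to 9185 FPKM in TAM-WT and 8070 to 8789 FPKM in TAM-KO replicates 2 to 4. C1qa was the most abundant of them over these 7 libraries pooled, though Cd68 was above it in 3 of the 4 TAM-WT libraries. The sum follows the most abundant markers and does not show whether single markers differed between genotypes, which is described with the other cell types.

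The stretches of DNA before the genes were searched for short motifs, because several of the genes are known to be active in myeloid cells. RefSeq promoters of the build GRCm38.p6 were found for 9 of the 10 genes, and Alox5ap had no entry. The 250 bases before the start were read on both strands. The motif GAGGAA, the core bound by PU.1, a transcription factor of macrophages, was present in 6 of the 9 promoters and in 23.3% of all 32851 promoters. The next lines give the 150 bases before the start of the genes that passed the test between genotypes, Hpgds and Alox5, and of Tbxas1, a synthase whose level was nearly the same in both. They are written 5′ to 3′ on the strand of the gene, with matches in capitals. The windows lie at chr6:65144731-65144880 on the minus strand for Hpgds, chr6:116461179-116461328 on the minus strand for Alox5 and chr6:38918836-38918985 on the plus strand for Tbxas1.
Hpgds: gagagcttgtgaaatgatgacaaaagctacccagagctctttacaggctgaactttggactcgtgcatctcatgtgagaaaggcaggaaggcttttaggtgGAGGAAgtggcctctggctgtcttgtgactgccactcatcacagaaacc
Alox5: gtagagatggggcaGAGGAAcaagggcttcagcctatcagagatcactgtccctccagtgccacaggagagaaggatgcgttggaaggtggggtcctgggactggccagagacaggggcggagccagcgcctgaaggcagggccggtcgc
Tbxas1: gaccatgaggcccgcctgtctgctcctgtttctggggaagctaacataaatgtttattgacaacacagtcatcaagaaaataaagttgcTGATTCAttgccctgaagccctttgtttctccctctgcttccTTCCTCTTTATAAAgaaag

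The capitals mark GAGGAA from 49 to 44 bases before the start in Hpgds and from 136 to 131 bases before it in Alox5. In Tbxas1 they mark TGATTCA, a match to TGANTCA, a loose form of the AP-1 motif, from 61 to 55 bases before the start. They also mark the run that holds GAGGAA on the minus strand next to TATAAA, the TATA box motif. On the plus strand TATAAA lies from 11 to 6 bases before the start. Whether any of these matches is used was not tested. Ptgs1, Ptgs2 and Ptges also held GAGGAA, from 24 to 19, 247 to 242 and 149 to 144 bases before their starts. Matches to TATAAA and TGANTCA were found only in Tbxas1 among the 9, against 12.4% and 6.75% of all promoters. The E-box CACGTG was found in 6.02% of all promoters, the cyclic AMP response half-site TGACG in 17.8% and the NF-kB consensus in 5.93%, and none of the 9 windows held any of these. The genes with GAGGAA include both genes that passed the test and 4 that did not. The starts used for Ptgs1, Ptges, Hpgds and Tbxas1 lie inside the full span of the gene, so other starts of these genes were not searched. Bases after the start were not searched for any of the 9 genes, Ptgs2 included, so motifs there would have been missed.

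TAM-KO had lower levels than TAM-WT for Alox5 and Hpgds, and the other 8 genes did not pass the test. Every adjusted p given here is from edgeR's quasi-likelihood test on read counts, adjusted over the 12412 genes tested, and a gene was called at an adjusted p of at most 0.05. All 10 genes passed the filter on low counts, and 2 of them were called, where 9.81% of all genes tested were called. Both were lower in TAM-KO, a direction in which 5.24% of all genes were called, while 4.58% were called as higher. Alox5 was called with a fold change of at least 2 as well, as were 2.53% of all genes in either direction and 1.12% as lower. The log2 fold change of TAM-KO over TAM-WT was below 0 for all 10, with a median of -0.50, where the median of all genes was 0.00. The 10 genes were chosen with earlier results of these data known and were read in the same libraries. Their shared sign is therefore a description and not evidence that they move together. Of all genes tested, 49.7% were below 0. That of Tbxas1 lay so close to 0 that it turned positive with scaling to total reads, on FPKM and in 4 of the 8 fits that left out a library, while the other 9 stayed below 0 in every alternative in which they were tested. At an unadjusted p under 0.05, 6 of the 10 genes differed, against 30.7% of all genes.

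The balance of calls over all genes moved with the scaling. Of the 1218 genes called, 568 were higher and 650 lower in TAM-KO, but with scaling to total reads 870 were higher and 480 lower. On log2(FPKM + 1) 916 were higher and 408 lower, and on log2(FPKM + 0.1) 878 were higher and 406 lower. The last of these moved the median of all genes to 0.11 on the log2 scale. Relative to that shift the lower levels of Alox5 and Hpgds stood under each scaling, and both were called in each.

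**Figure D1:**
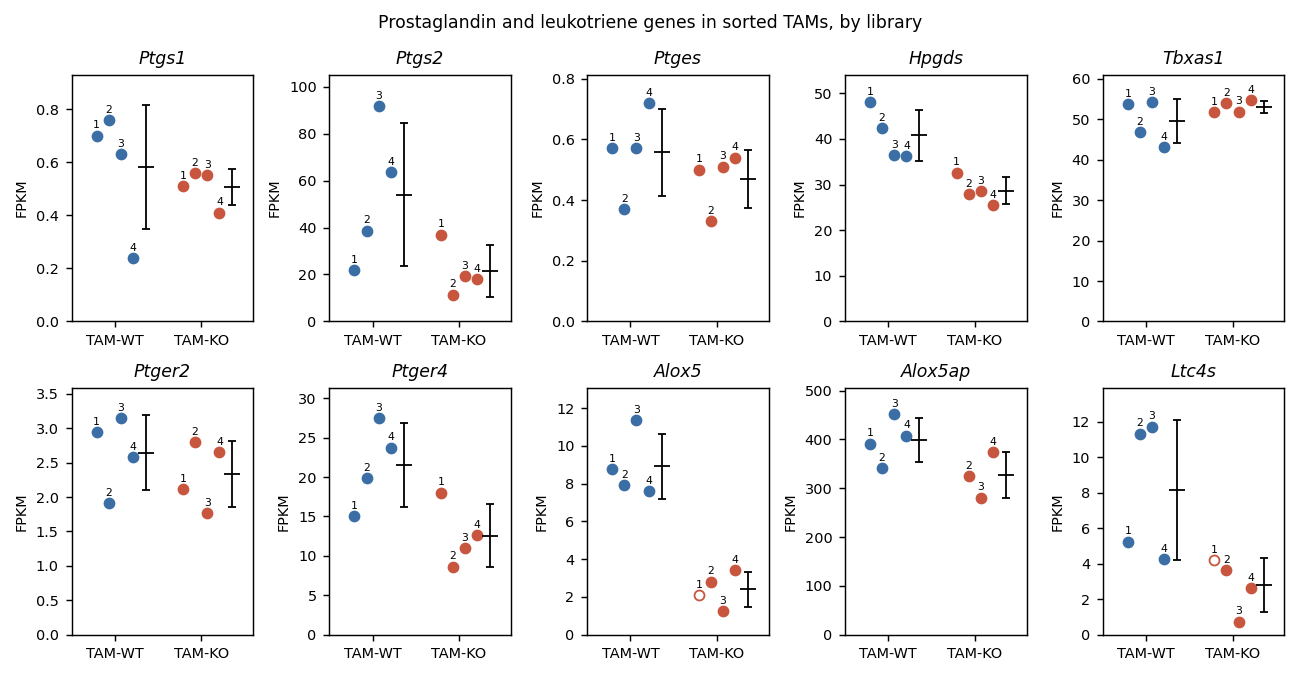
FPKM of the 10 genes in each library, with TAM-WT in blue and TAM-KO in red, replicate numbers beside the points, and the mean ± SD in black. Open points are values of TAM-KO replicate 1 from the table of the whole series, and Alox5ap has no such value. The groups do not overlap for Hpgds, Alox5 and Ltc4s.

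Alox5, the enzyme that starts leukotriene synthesis, was lower in TAM-KO, and its fold change was, with those of Ltc4s and Ptgs2, among the 3 largest of the 10 genes. The gene (NCBI gene 11689) lies at chr6:116410071-116461178 in RefSeq's annotation of GRCm38.p6, from which the positions of all 10 were taken. Its level was 8.76, 7.92, 11.38 and 7.60 FPKM in TAM-WT replicates 1 to 4, and 2.11, 2.81, 1.25 and 3.44 FPKM in TAM-KO replicates 1 to 4. Every TAM-KO library lay below every TAM-WT library, and the highest TAM-KO value was under the lowest TAM-WT value by more than the SD of either group. The means were 8.92 ± 1.71 FPKM and 2.40 ± 0.941 FPKM (SD, n = 4 each). The log2 fold change was -1.94 with an SE of 0.33, or 3.84-fold lower, with an edgeR adjusted p of 0.0195. The call was lost when TAM-WT replicate 3 (adjusted p = 0.0522) or TAM-KO replicate 2 (adjusted p = 0.0825) was left out, and was kept in the other 16 alternatives. These are sorted pools of cells, so fewer Alox5-expressing cells and less Alox5 RNA per cell cannot be told apart.

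Alox5ap, which presents arachidonic acid to 5-lipoxygenase, was the most abundant of the 10 genes. It is NCBI gene 11690, at chr5:149265004-149288153. It stood at 391.52, 341.91, 451.21 and 407.81 FPKM in TAM-WT, and at 324.30, 280.87 and 374.73 FPKM in TAM-KO replicates 2 to 4. The groups overlapped, since TAM-KO replicate 4 lay above TAM-WT replicate 2. Alox5ap had a log2 fold change of -0.38 with an SE of 0.15, and its edgeR adjusted p was 0.135. Of the 18 alternatives, limma voom alone called it (adjusted p = 0.019). The level of Alox5ap was thus many times that of Alox5 in the 7 libraries with both values. The ratio of their FPKM was 44.7, 43.2, 39.6 and 53.7 in TAM-WT and 115, 225 and 109 in TAM-KO replicates 2 to 4, with means of 45.3 ± 5.96 (SD, n = 4) and 150 ± 65.0 (SD, n = 3). Every TAM-KO ratio was above every TAM-WT ratio, which is given as a description without a test.

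Ltc4s makes leukotriene C4, the first of the cysteinyl leukotrienes, and spans chr11:50236461-50238532 (NCBI gene 17001). It was at 5.25, 11.33, 11.73 and 4.26 FPKM in TAM-WT and at 4.21, 3.64, 0.74 and 2.63 FPKM in TAM-KO. All TAM-KO values were below all TAM-WT values, though TAM-KO replicate 1 and TAM-WT replicate 4 were nearly equal, and the TAM-WT libraries themselves fell into a higher and a lower pair. Ltc4s had a fitted log2 fold change of -1.86 with an SE of 0.55, close to that of Alox5 in size, and the edgeR adjusted p was 0.0673. It was called by DESeq2 (adjusted p = 0.00951) and in none of the other 16 alternatives in which it was tested. Its counts were low, with 29 to 78 reads in TAM-WT and 5 to 29 in TAM-KO. Of its exon bases, 26.4% are shared with the antisense gene Gm26542 in the GENCODE annotation, and whether the counting used strand is not given in the sources used here. Alox5, Hpgds and Ltc4s were the 3 of the 10 genes with every TAM-KO library below every TAM-WT library among those tested. This pattern was seen in 5.65% of all genes. That share pools 9396 genes tested on 8 libraries with 3016 tested on 7. Alox5 and Ltc4s were tested on 7, where a lack of overlap is easier to reach.

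Ptgs2, the inducible cyclooxygenase, was far more abundant than Ptgs1 and varied widely between libraries of the same genotype. The gene (NCBI gene 19225) lies at chr1:150100031-150108234. Its values were 21.84, 38.67, 91.55 and 63.66 FPKM in TAM-WT and 36.98, 11.48, 19.40 and 18.07 FPKM in TAM-KO. TAM-KO replicates 2 to 4 lay below all TAM-WT libraries, but TAM-KO replicate 1 lay above TAM-WT replicate 1. The means were 53.9 ± 30.4 and 21.5 ± 10.9 FPKM (SD, n = 4 each), so the SD was over 50% of the mean in both groups (56.4% and 50.7%). The log2 fold change of -1.47 (SE 0.47) had an edgeR adjusted p of 0.0718. Leaving out TAM-WT replicate 1 (log2 fold change -1.74, adjusted p = 0.0338) or replicate 2 (-1.62, adjusted p = 0.0418) gave a call, as did limma voom with sample quality weights, and leaving out TAM-WT replicate 3 gave -1.04 (adjusted p = 0.196). From these same libraries the study listed a gene printed as Plgs2, read here as Ptgs2, among procancer genes lower in TAM-KO. The direction of Ptgs2 is thus not independent evidence. For that list the study used its own fold change threshold and compared FPKM by analysis of variance. The edgeR test here is a different test, and it did not call Ptgs2.

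Ptgs1, the cyclooxygenase that many cells express without a stimulus, was low in all libraries. It is NCBI gene 19224, at chr2:36216742-36258593. It had 0.70, 0.76, 0.63 and 0.24 FPKM in TAM-WT and 0.51, 0.56, 0.55 and 0.41 FPKM in TAM-KO, from 12 to 36 reads per library. The groups overlapped, and the log2 fold change was -0.23 with an SE of 0.31 (edgeR adjusted p = 0.651). The ratio of Ptgs2 to Ptgs1 was 31.2, 50.9, 145 and 265 in TAM-WT and 72.5, 20.5, 35.3 and 44.1 in TAM-KO, so Ptgs2 was the main cyclooxygenase transcript in every library. These ratios rest on few Ptgs1 reads, and the groups overlapped.

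Among the terminal synthases, Hpgds was lower in TAM-KO. It makes prostaglandin D2 in hematopoietic cells, and its gene (NCBI gene 54486) is at chr6:65117293-65144981. Its level was 48.05, 42.29, 36.45 and 36.28 FPKM in TAM-WT and 32.61, 27.86, 28.63 and 25.47 FPKM in TAM-KO, with no overlap between the groups. The means were 40.8 ± 5.60 and 28.6 ± 2.97 FPKM (SD, n = 4 each). On the log2 scale Hpgds fell by 0.62 with an SE of 0.09, which is 1.53-fold lower, and the edgeR adjusted p was 0.0101. The call held in all 18 alternatives, including each library left out in turn, with an adjusted p of at most 0.0471.

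Tbxas1, the thromboxane synthase, was expressed at a level like that of Hpgds and showed little difference. Like Hpgds and Alox5 it is on chromosome 6, at chr6:38864159-39084590 (NCBI gene 21391). It was at 53.72, 46.94, 54.36 and 43.23 FPKM in TAM-WT and at 51.80, 53.93, 51.92 and 54.72 FPKM in TAM-KO, and the TAM-KO values lay at the upper end of the TAM-WT range. Its log2 fold change was -0.01 with an SE of 0.09, the same SE as for Hpgds, with an edgeR adjusted p of 0.949. Within each library the ratio of Hpgds to Tbxas1, chosen after the values were seen, was 0.894, 0.901, 0.671 and 0.839 in TAM-WT and 0.630, 0.517, 0.551 and 0.465 in TAM-KO. All TAM-KO ratios were below all TAM-WT ratios. Hpgds alone already had no overlap and Tbxas1 differed little, so the ratio adds no separate support and is only a description.

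Ptges, the inducible microsomal prostaglandin E2 synthase, was scarce. It is on chromosome 2 like Ptgs1, at chr2:30889471-30931020 (NCBI gene 64292). It had 0.57, 0.37, 0.57 and 0.72 FPKM in TAM-WT and 0.50, 0.33, 0.51 and 0.54 FPKM in TAM-KO, from 17 to 39 estimated reads per library. The groups overlapped, and the log2 fold change was -0.35 with an SE of 0.27 (edgeR adjusted p = 0.407). The other prostaglandin E2 synthases Ptges2 and Ptges3 were more abundant, at 9.32 ± 2.22 and 80.4 ± 7.78 FPKM in TAM-WT and at 9.98 ± 0.547 and 94.0 ± 9.12 FPKM in TAM-KO (SD, n = 4), and neither passed the test.

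The EP4 receptor gene Ptger4 was the more abundant of the 2 prostaglandin E2 receptors among the 10 genes. It lies at chr15:5233399-5244187 (NCBI gene 19219). It was at 15.08, 19.82, 27.52 and 23.72 FPKM in TAM-WT and at 18.03, 8.65, 10.96 and 12.64 FPKM in TAM-KO. As with Ptgs2, TAM-KO replicates 2 to 4 were below all TAM-WT libraries and TAM-KO replicate 1 was above TAM-WT replicate 1. Ptger4 had a log2 fold change of -0.90 with an SE of 0.25, and the edgeR adjusted p of 0.0523 was just above the threshold. It was called in 6 of 18 alternatives (with TAM-WT replicate 1, TAM-WT replicate 2 or TAM-KO replicate 1 left out, by DESeq2, by limma voom and with no filter on low counts), and over all 18 the adjusted p ran from 0.00602 to 0.147. A pseudogene on the other strand, Gm15937, shares 15.3% of its exon bases.

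Ptger2, the gene of EP2 at chr14:44988111-45003820 (NCBI gene 19217), was at 2.94, 1.91, 3.15 and 2.58 FPKM in TAM-WT and at 2.11, 2.80, 1.77 and 2.65 FPKM in TAM-KO. These ranges overlapped almost fully. The log2 fold change was -0.22 with an SE of 0.20 and an edgeR adjusted p of 0.503.

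**Figure D2:**
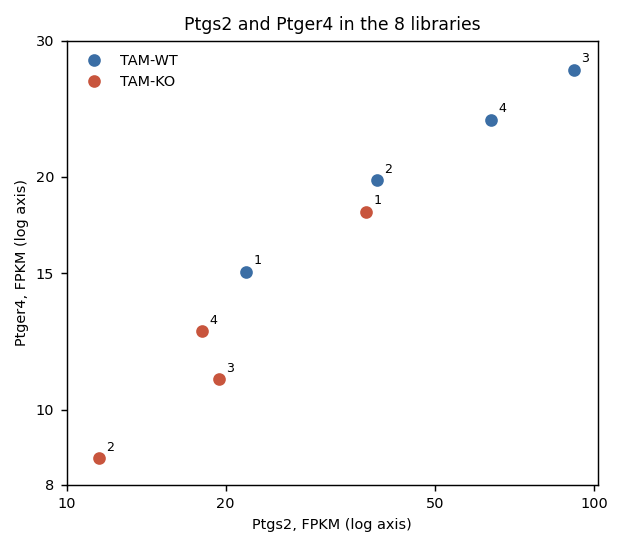
Level of Ptger4 (vertical, FPKM, log axis) against that of Ptgs2 (horizontal, FPKM, log axis) in the 8 libraries, with TAM-WT in blue, TAM-KO in red and replicate numbers beside the points. TAM-WT replicate 3 is highest and TAM-KO replicate 2 lowest for both genes, and TAM-KO replicate 1 lies among the TAM-WT libraries.

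The libraries fell in nearly the same order for Ptgs2 and Ptger4. From the highest down, both had TAM-WT replicates 3, 4 and 2, then TAM-KO replicate 1, then TAM-WT replicate 1, and both were lowest in TAM-KO replicate 2. The order of TAM-KO replicates 3 and 4 was reversed between them. This likeness was seen in the values and was not tested, and the genotype difference is part of it. Over all 10 genes, TAM-WT replicate 3 was the highest library for 6, and TAM-KO replicate 3 was the lowest for 4 and TAM-KO replicate 2 for 3.

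In TAM-WT the order of mean levels was Alox5ap, Ptgs2, Tbxas1, Hpgds, Ptger4, Alox5, Ltc4s, Ptger2, Ptgs1 and Ptges. Alox5ap stood above all others in the 7 libraries that list it. The ranges of Ptgs2, Tbxas1 and Hpgds over the TAM-WT libraries overlapped, as did those of Alox5 and Ltc4s and those of Ptgs1 and Ptges. In TAM-KO, Tbxas1 and Hpgds came directly after Alox5ap, at 53.1 ± 1.46 and 28.6 ± 2.97 FPKM (SD, n = 4), ahead of Ptgs2, whose range overlapped that of Hpgds.

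**Figure D3:**
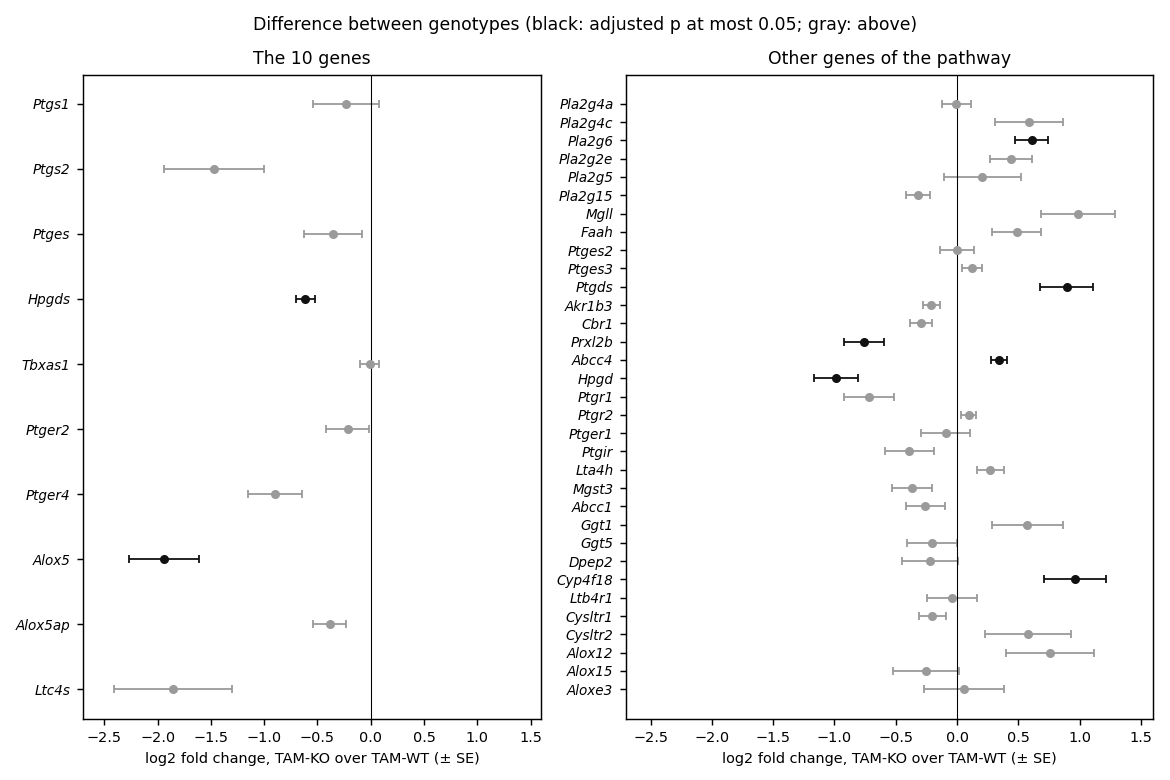
Log2 fold change of TAM-KO over TAM-WT with its SE for the 10 genes (left) and for 33 other genes of the pathway (right), in black where the edgeR adjusted p was at most 0.05 and in gray where it was above. All 10 points on the left lie below 0, while the right panel has 17 above 0 and 16 below.

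**Figure D4:**
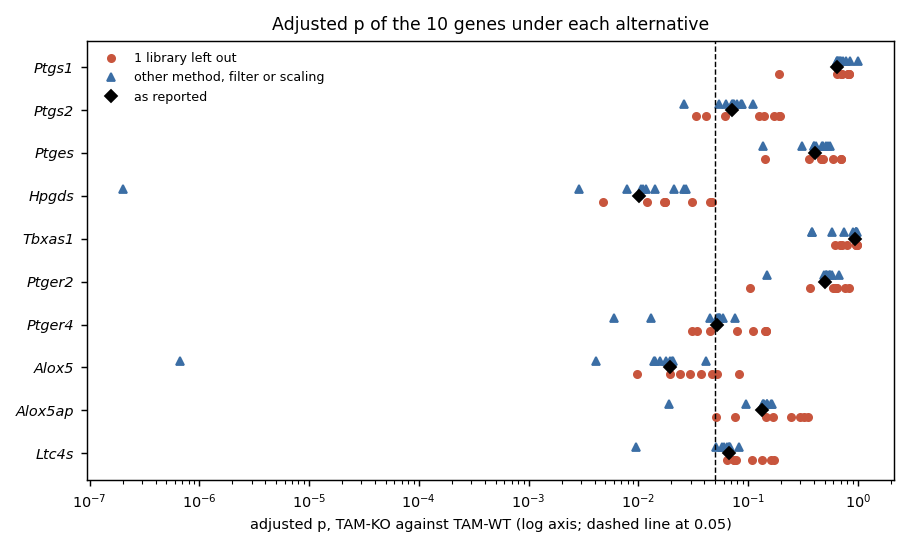
Adjusted p (horizontal, log axis) of each of the 10 genes as reported (diamonds), with 1 library left out (circles) and under other methods, filters or scalings (triangles), with a dashed line at 0.05. Hpgds lies left of the line throughout, Alox5 crosses it in 2 alternatives, and Ptger4, Ptgs2, Ltc4s and Alox5ap lie on both sides.

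The rest of the pathway, also listed with earlier results of these data known, did not share a direction. A list of 48 other genes of arachidonic acid release, prostanoid and leukotriene metabolism and their receptors had 45 with a value, and 33 passed the filter on low counts. Of these, 6 were called (18.2%, against 9.81% of all genes), with 4 higher and 2 lower in TAM-KO. The median log2 fold change was 0.00. Without TAM-KO replicate 2 or replicate 3 in turn, edgeR called 0 of the 33, although 10 and 11 had an unadjusted p under 0.05, while DESeq2 called 10 and limma voom 16 with all libraries. Leaving out TAM-WT replicate 2, 3 or 4 gave 14, 1 and 2 calls, and leaving out TAM-KO replicate 1 gave 3.

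Of 8 genes of arachidonic acid release that were tested, Pla2g6, a calcium-independent phospholipase, was called. It rose by 0.61 on the log2 scale (SE 0.13, edgeR adjusted p = 0.0285), from 5.33 ± 1.41 to 8.69 ± 0.712 FPKM (SD, n = 4), with a call in 4 of the 8 fits that left out a library. Pla2g4a, the cytosolic phospholipase usually held to supply both branches, was at 15.7 ± 1.54 FPKM in TAM-WT and 16.9 ± 2.59 FPKM in TAM-KO, with an adjusted p of 0.979 by edgeR. The lysosomal phospholipase Pla2g15 had a log2 fold change of -0.32 (edgeR adjusted p = 0.067).

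Among the other prostanoid synthases, Ptgds and Prxl2b were called in opposite directions. Ptgds, the lipocalin-type prostaglandin D synthase, makes the same product as Hpgds. It was at 251.61, 413.34, 194.36 and 188.46 FPKM in TAM-WT and at 475.61, 649.83, 468.39 and 471.00 FPKM in TAM-KO, so all TAM-KO libraries were higher, as they were for 13.8% of all genes. Its log2 fold change was 0.89 (SE 0.22, edgeR adjusted p = 0.0364), opposite in sign to that of Hpgds, and it was called with 1 of the 8 libraries left out, TAM-WT replicate 2, and not with the other 7. The melanocyte gene Mlana was at 439.27, 748.03, 350.99 and 328.52 FPKM in TAM-WT and at 803.90, 884.06, 739.17 and 633.93 FPKM in TAM-KO, and both genes were highest in replicate 2 within each group. The part of tumor cell RNA in the level of Ptgds was not tested. Prxl2b, the prostamide and prostaglandin F synthase, fell by 0.76 on the log2 scale (SE 0.16, edgeR adjusted p = 0.0274), from 40.3 ± 5.10 to 25.3 ± 6.01 FPKM (SD, n = 4), with a call in 3 of the 8 fits that left out a library.

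Of the genes of prostaglandin transport and breakdown, Abcc4 was higher and Hpgd lower in TAM-KO. Abcc4, an efflux pump that exports prostaglandin E2, rose by 0.34 on the log2 scale (SE 0.06, edgeR adjusted p = 0.0196), from 6.25 ± 0.601 to 8.54 ± 0.389 FPKM (SD, n = 4). Hpgd, the dehydrogenase that inactivates prostaglandins, had a log2 fold change of -0.99 (SE 0.18, edgeR adjusted p = 0.0218, 3 TAM-KO libraries in the test). Its levels were 6.62, 5.28, 4.2 and 5.19 FPKM in TAM-WT and 3.0, 3.43, 2.88 and 2.32 FPKM in TAM-KO. The call of Abcc4 was kept in 5 and that of Hpgd in 6 of the 8 fits that left out a library. Ptgr1, a reductase of prostaglandin and leukotriene metabolites, was at 46.6 ± 10.6 and 30.8 ± 5.94 FPKM (SD, n = 4) and just missed the threshold (edgeR adjusted p = 0.0551). The prostacyclin receptor gene Ptgir, the most abundant of the other prostanoid receptors in TAM-WT, was at 4.06 ± 1.03 and 3.32 ± 0.414 FPKM (SD, n = 4), with a log2 fold change of -0.39 and an edgeR adjusted p of 0.22.

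On the leukotriene side, Cyp4f18, a hydroxylase that acts on leukotriene B4, was called and was higher in TAM-KO. It rose by 0.96 on the log2 scale (SE 0.25, edgeR adjusted p = 0.0431), from 16.6 ± 5.89 to 35.1 ± 8.63 FPKM (SD, n = 4), with a call in 2 of the 8 fits that left out a library. With the replicate block (adjusted p = 0.0706) and with TAM-KO replicate 1 filled from the series table (adjusted p = 0.051) it was also not called by edgeR. Lta4h, which turns leukotriene A4 into leukotriene B4 and so competes with Ltc4s for it, was at 73.1 ± 14.1 FPKM in the 4 TAM-WT libraries and 94.5 ± 6.30 FPKM in 3 TAM-KO libraries (mean ± SD), with a log2 fold change of 0.27 and an edgeR adjusted p of 0.148. The receptor genes Ltb4r1 and Cysltr1 had log2 fold changes of -0.04 and -0.20, and neither passed the test (edgeR adjusted p of 0.915 and 0.253). Alox12, Alox15 and Aloxe3, other lipoxygenases, had mean levels of at most 0.235 FPKM in either group, so Alox5 was the main lipoxygenase transcript even in TAM-KO.

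Other cell types could contribute RNA to such sorted pools, and their markers were read in the 7 libraries that list every gene. The gene that leads each list is the most abundant over these libraries pooled, not in each group. Mast cells and basophils, which also express Hpgds, Alox5 and Ltc4s, left little trace. The summed level of their 5 measured markers was 2.06 to 3.27 FPKM in TAM-WT and 2.08 to 3.06 FPKM in TAM-KO, nearly all of it Kit, and Cpa3, Mcpt8 and Ms4a2 had at most 3 reads in every library. Eosinophil markers summed to 1.96 to 3.85 FPKM and 1.14 to 2.09 FPKM, most of it Ccr3, with Il5ra at no more than 3 reads in any library. Platelet markers, of interest for Tbxas1 and Ptgs1, summed to 1.39 to 2.61 and 2.36 to 2.86 FPKM, led by Treml1.

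Neutrophils express Alox5 and Alox5ap. Their markers summed to 47.2 to 74.2 FPKM in TAM-WT and 60.1 to 73.2 FPKM in TAM-KO replicates 2 to 4, led by Mmp8, and Ly6g and Ngp had at most 3 reads in every library. TAM-KO replicate 1 stood apart, with a summed level of 214 FPKM over the 7 of 8 markers that have a value there. S100a8 was at 73.46 FPKM in that library and at 9.13 to 15.83 FPKM in the other TAM-KO libraries, and was called as higher in TAM-KO (log2 fold change 2.68, edgeR adjusted p = 0.0481). Mmp8 was at 30.4 ± 11.9 FPKM in TAM-WT and 15.1 ± 3.32 FPKM in TAM-KO (SD, n = 4), with a log2 fold change of -1.22 and an edgeR adjusted p of 0.0603. Of the 5 neutrophil markers tested, 4 had a log2 fold change above 0, while Mmp8 alone was below 0. The part of neutrophils in the levels of Alox5 and Alox5ap was not tested. Of the 9 macrophage markers, all tested, 4 had a log2 fold change above 0 and 5 below. Of these, 1 was called, as lower in TAM-KO. Among monocyte markers, Ly6c2 and Plac8 were called as higher and Fn1, which leads the list, as lower in TAM-KO. Dendritic cell markers summed to 7.57 to 17.8 and 9.89 to 11.8 FPKM, led by Ccr7. Of the 7 tested, 5 had a log2 fold change above 0 and 2 below. Xcr1 alone of them was called, as higher in TAM-KO (log2 fold change 1.78, edgeR adjusted p = 0.0435). It was at 0.18 ± 0.126 FPKM in TAM-WT and 0.66 ± 0.258 FPKM in TAM-KO (SD, n = 4). Fibroblast markers summed to 2.15 to 6.51 and 2.90 to 4.45 FPKM, led by Col1a1.

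Melanoma and lymphocyte markers tended to stand higher in the TAM-KO libraries. The 7 melanoma markers summed to 1958 to 4382 FPKM in TAM-WT and 3817 to 5057 FPKM in TAM-KO, led by Pmel, and their log2 fold changes were all above 0, with 1 called, Sox10 (0.76, edgeR adjusted p = 0.0295). T cell and NK cell markers summed to 2.19 to 22.3 and 19.5 to 64.9 FPKM, led by Gzmb, with 6 of 7 tested above 0 and, by edgeR, 0 called, although 6 had an unadjusted p under 0.05 and DESeq2 and limma voom called 1 and 6. With TAM-WT replicate 1 left out edgeR called 6 and with the replicate block 5, and Gzmb was at 6.55 FPKM in TAM-WT replicate 1 against 0.23 to 0.47 FPKM in the other TAM-WT libraries. The part of these cells in the differences of Alox5, Hpgds, Ptgs2 and the called genes of the pathway list was not tested.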

How the data were processed

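RNA-Seq of CD45+F4/80+ TAMs was performed by the authors on the BGISEQ-500 platform in 4 TAM-WT and 4 TAM-KO mice. The submitters' processing notes name HISAT2 2.0.4, Bowtie2 2.2.5, RSEM 1.2.12 and GRCm38.p6. The authors deposited expected counts per gene, RSEM estimates that can be fractional, with no normalization. FPKM values were deposited by the authors, relative to gene length and mapped reads. TPM was not used. The authors' table of their own comparison also holds log2 ratios, p-values and q-values, which were not used, and served only to fill TAM-KO replicate 1: its FPKM equaled that replicate's own table within 0.005 for 2808 of 2808 shared genes. In the table of TAM-KO replicate 1, 629 displaced values were dropped.

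After rounding, the test was edgeR 4.0.16 in R 4.3.3 (TMM, filterByExpr, glmQLFit, glmQLFTest, Benjamini-Hochberg adjustment). Genes with values in all 8 libraries (9396 tested) were fitted on 8, and the others (3016 tested) on 7. The SE was the log2 fold change over the square root of F. The script was tested on simulated data. Genes named by rule were the 10 genes, called genes of the pathway list, the gene of highest mean FPKM in TAM-WT in each of its roles, and the most abundant gene of each cell type marker list. Pla2g4a, Ptges2, Ptges3, Cysltr1, Alox12, Alox15 and other marker genes were named after their values were seen. The 10 genes and all lists were chosen with earlier results of these data known. Alternatives were DESeq2 1.42.0 and its size factors, total-read scaling, limma 3.58.1 (voom, log2(FPKM + 1), log2(FPKM + 0.1)), filters of none and of at least 10 counts in each library, a replicate block, TAM-KO replicate 1 filled, and each library left out. Intervals of counting error were not computed, since SEs carry the spread between mice. Protein sequences were not used here. The values of 1 marker gene are not reported here.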

Additional observations from a re-analysis of the deposited data

Results flagged for a closer look

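The level of Ptgds in TAM-KO replicate 2, 649.83 FPKM, stood apart from the other TAM-KO libraries, with a gap to the nearest of them that was 0.960 of the range of the group, above the critical value of Dixon's test for 4 samples. It was the only such value among 41 groups of libraries tested for the 10 genes and the named pathway genes, where chance alone would give about 2.05. With that library left out, the log2 difference of Ptgds was 0.77, with an adjusted p of 0.119 by edgeR. The 10 genes themselves gave no such value.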

How the results depend on the processing

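Of the 10 genes 2 were called as reported, and 4 by the DESeq2 Wald test and 5 by limma voom with sample quality weights. With a fold change of at least 2 as well, 1 gene was called as reported, 2 by DESeq2 and 3 by limma voom. Of the pathway list 6 genes were called as reported, 10 by DESeq2 and 16 by limma voom. With each library left out in turn, the calls among the 10 genes ran from 1 to 4, those with a fold change of at least 2 from 0 (without TAM-WT replicate 3 or TAM-KO replicate 2) to 3, and those of the pathway list from 0 to 14. No direction of a called gene was reversed in any alternative run. With the replicate block the counts were 2, 1 and 6, but Cyp4f18 was no longer called (adjusted p = 0.0706), so the 6 of the pathway list differ in part. Replicates of the same number did not deviate together, with correlations of -0.31, 0.01, -0.23 and 0.26 over 9396 genes, so the numbers were not read as pairing the mice. Over all genes, edgeR called 1218, DESeq2 2253 and limma voom 3625, and edgeR's count changed with the library left out: 77 for either of TAM-KO replicates 2 and 3, 682 for TAM-KO replicate 1, and 2755, 151 and 416 for TAM-WT replicates 2, 3 and 4. The causes were not tested. Ltc4s could not be tested with at least 10 counts in every sample. Depth limits Ptgs1, Ptges and Ltc4s, each with under 100 reads in every library.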

Other observations

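The deposited annotation names 88 genes of arachidonic acid metabolism, a list taken up after the files were seen. Of these, 37 were tested and 7 were called (18.9%, against 9.81% of all genes), 3 higher and 4 lower in TAM-KO. Of the 14 tested that are neither among the 10 genes nor on the pathway list, 1 was called (7.14%). Cbr2, a carbonyl reductase, was the only called gene that is neither among the 10 genes nor on the pathway list, with a log2 fold change of -1.21 (SE 0.29, edgeR adjusted p = 0.0423). Mgll, the monoacylglycerol lipase, named here after its values were seen, was at 33.62, 67.52, 25.16 and 20.35 FPKM in TAM-WT and at 71.80, 95.65, 73.50 and 68.54 FPKM in TAM-KO. Its groups did not overlap, and all TAM-KO libraries were higher, as they were for 13.8% of all genes. Mgll did not pass the test (log2 fold change 0.99, edgeR adjusted p = 0.0639). Like Mlana, it was highest in replicate 2 within each group, and the part of tumor cell RNA in its level was not tested.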
